A study of Mus musculus with 9 samples.

Results

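The 8 troponin subunit genes of the mouse were followed through 5 days of muscle differentiation in C2C12 cells. They were taken by symbol as the 3 genes of troponin T (Tnnt1, Tnnt2 and Tnnt3), the 3 of troponin I (Tnni1, Tnni2 and Tnni3) and the 2 of troponin C (Tnnc1 and Tnnc2). All 8 were found among the 47729 genes of the table, and all 8 were among the 13324 genes tested, which had at least 1 CPM (counts scaled to library size) in at least 3 of 9 libraries.

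Troponin is the calcium switch of the striated muscle thin filament. Troponin C binds calcium, troponin I holds the complex in the state that blocks contraction, and troponin T anchors the complex to tropomyosin. Each subunit has forms named after the muscle in which they prevail. Tnnt1 and Tnni1 are the slow forms, Tnnt3 and Tnni2 the fast forms, and Tnnt2 and Tnni3 the cardiac forms. Tnnc1 serves both slow skeletal and cardiac muscle, and Tnnc2 serves fast muscle. Embryonic and cultured skeletal muscle is also known to make cardiac troponin T.

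C2C12 is an established mouse myoblast line whose cells fuse into myotubes in low serum. The labels give 3 populations: WT, which carries a guide RNA without a target, and Per1KO and Per2KO, in which CRISPR-Cas9 was directed at the clock gene Per1 or Per2. Each was sampled at day 0, in growth medium with 10% fetal serum, and at days 3 and 5 of differentiation in 5% horse serum. Whether a knockout was 1 clone or a mixed population is not given in the sources used here, and the tissue field of the labels reads whole muscle although the protocol describes cultured cells. There was 1 library for each population and day, so the days of a population served as its replicates, and the populations as replicates for a day. Each p-value therefore measures the spread left between single libraries.

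WT libraries held 5020385 to 6773320 counts and knockout libraries 41997763 to 48051824, and the titles of the WT libraries carry an L002 tag that those of the knockouts lack. Wherever a knockout is set against WT, its genotype and its depth cannot be told apart, nor can whatever that tag stands for. Per1 stood at 35.5, 33.7 and 30.96 CPM in WT on days 0, 3 and 5, at 20.8, 32.4 and 28.9 CPM in Per1KO, and at 16.4, 30.4 and 32.9 CPM in Per2KO. Per2 stood at 9.73, 11.5 and 20.4 CPM in WT, at 6.58, 9.43 and 10.6 CPM in Per1KO, and at 3.50, 9.11 and 8.37 CPM in Per2KO. Per2 was lower in Per2KO than in WT (log2 fold change -1.02, adjusted p = 0.023, edgeR), with -0.62 in Per1KO (adjusted p = 0.11), and it was lower in Per2KO than in Per1KO on each day. Per1 stood at -0.34 in Per1KO and -0.40 in Per2KO against WT (adjusted p = 0.31 and 0.23). In the direct edgeR test of Per1KO against Per2KO neither gene was called, and counts over a whole gene do not show a small edit. All 6 skeletal myoblast markers were above 3 counts in every library, at a summed level of 1959 to 5396 CPM. The 8 cardiomyocyte markers summed to 22.2 to 44.98 CPM. Most of that was Gata4, at up to 40.9 CPM. Nppb (6 to 194 counts, up to 4.01 CPM) and Nkx2-5 (4 to 58 counts, up to 1.15 CPM) were also above 3 counts in every library. Hand2 had 0 counts in every library, Nppa at most 1, Myl7 at most 2, Tbx5 at most 3 and Tbx20 at most 5. Summed smooth muscle markers were 136 to 181 CPM in WT and 78.8 to 94.4 CPM in the knockouts. Nearly all of this was Smtn (76.5 to 181 CPM), while Myh11, Cnn1 and Myocd reached at most 0.220, 1.30 and 0.963 CPM, and 1 of 4 markers in WT and 2 to 4 of 4 in the knockouts were above 3 counts. Summed adipocyte markers were 0.0620 to 0.878 CPM, osteoblast markers 30.5 to 66.4 CPM, and endothelial and immune markers 0.648 to 2.20 CPM. Nearly all of the osteoblast sum was Runx2 (30.4 to 66.0 CPM), while Bglap had at most 2 counts, Sp7 at most 6 and Ibsp 0 in every library. The part of these markers in the results was not tested. In bulk RNA, fewer cells that express a gene and less RNA per cell cannot be told apart.

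The troponin genes lie in pairs. On the GRCm38 build Tnnt1 (chromosome 7, 4504570 to 4516382, minus strand) lies 1922 bases from Tnni3 (chromosome 7, 4518305 to 4524229, minus strand). Tnni1 (chromosome 1, 135779434 to 135810989, plus strand) lies 25364 bases from Tnnt2 (chromosome 1, 135836354 to 135852260, plus strand), with Lad1 between them. Tnni2 (chromosome 7, 142441808 to 142444410, plus strand) lies 54425 bases from Tnnt3 (chromosome 7, 142498836 to 142516009, plus strand), with Lsp1 between them. Tnnc1 (chromosome 14, 31208312 to 31211729, plus strand) and Tnnc2 (chromosome 2, 164777161 to 164779967, minus strand) stand alone. All are protein-coding genes. Tnnc1 lies within the span of Nisch on the other strand without sharing exon bases with it.

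The sequences that precede the start sites are shown because all of these genes rose during differentiation and because skeletal myogenic factors bind the E-box, a short motif. RefSeq promoter windows (GRCm38.p6) matched 6 of 8 members. The 250 bases before 1 RefSeq start are printed for each, on the gene's own strand. Capitals mark E-boxes (CANNTG) and the MCAT element (CATTCC on either strand), which TEAD factors bind.
Tnnt1, chr7:4515976-4516225, minus strand: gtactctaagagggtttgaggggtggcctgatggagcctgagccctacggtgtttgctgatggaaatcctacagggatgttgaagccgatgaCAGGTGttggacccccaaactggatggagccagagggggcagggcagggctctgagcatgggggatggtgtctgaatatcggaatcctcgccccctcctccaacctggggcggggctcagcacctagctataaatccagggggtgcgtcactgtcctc
Tnnt2, chr1:135836084-135836333, plus strand: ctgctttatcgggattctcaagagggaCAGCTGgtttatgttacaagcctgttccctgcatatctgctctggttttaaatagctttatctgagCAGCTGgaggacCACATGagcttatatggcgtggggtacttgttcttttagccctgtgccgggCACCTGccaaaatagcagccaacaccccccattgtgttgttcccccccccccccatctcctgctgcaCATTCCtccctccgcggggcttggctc
Tnni1, chr1:135799171-135799420, plus strand: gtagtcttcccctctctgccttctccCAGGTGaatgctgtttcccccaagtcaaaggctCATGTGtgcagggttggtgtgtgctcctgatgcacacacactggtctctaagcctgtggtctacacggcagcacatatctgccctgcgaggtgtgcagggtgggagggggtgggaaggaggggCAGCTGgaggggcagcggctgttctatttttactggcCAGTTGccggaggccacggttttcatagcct
Tnni3, chr7:4522529-4522778, minus strand: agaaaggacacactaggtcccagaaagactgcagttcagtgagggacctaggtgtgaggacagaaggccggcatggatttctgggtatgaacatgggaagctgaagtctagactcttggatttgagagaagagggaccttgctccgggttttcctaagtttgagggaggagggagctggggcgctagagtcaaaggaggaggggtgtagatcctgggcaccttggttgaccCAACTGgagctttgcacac
Tnnc1, chr14:31208062-31208311, plus strand: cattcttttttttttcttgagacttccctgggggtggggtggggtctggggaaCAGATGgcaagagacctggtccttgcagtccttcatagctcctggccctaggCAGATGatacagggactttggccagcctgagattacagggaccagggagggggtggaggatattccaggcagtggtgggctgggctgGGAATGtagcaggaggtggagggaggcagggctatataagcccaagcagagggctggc
Tnnc2, chr2:164779735-164779984, minus strand: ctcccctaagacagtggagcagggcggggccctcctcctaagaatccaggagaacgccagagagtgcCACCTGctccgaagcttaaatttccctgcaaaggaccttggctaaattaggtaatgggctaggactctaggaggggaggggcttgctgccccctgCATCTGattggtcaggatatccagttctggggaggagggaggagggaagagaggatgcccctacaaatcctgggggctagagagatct
An E-box stood in 6 of 6 windows. It also stood in 66.2% of 32851 windows of the same length over all genes, so its presence does not set these genes apart. Among the printed windows, those of Tnnt2 and Tnni1 held 4 each, Tnnc1 and Tnnc2 2 each, and Tnni3 and Tnnt1 1 each. The form CAGCTG occurred in 2 windows, Tnnt2 and Tnni1, against 13.0% of all windows. The form CACCTG, on either strand, occurred in 4 windows, those of Tnnt1, Tnnt2, Tnni1 and Tnnc2, against 17.2%. The MCAT element occurred in Tnnt2, 27 bases before the start, and in Tnnc1, 58 bases before it, against 12.6% of all windows. TATAAA on the gene's own strand occurred in Tnnt1, 30 bases before the start, against 7.59%. The MEF2 motif occurred in 0 of 6 windows and in 2.92% of all. Tnnt2 and Tnni1 each have another RefSeq start, whose window is not printed and held fewer sites. It held 1 E-box for Tnnt2 and 2 for Tnni1. CAGCTG occurred there in Tnni1 only, and CACCTG and the MCAT element in neither. The counts above thus depend on the start chosen. These are matches of letters, and no binding was measured.

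Every troponin gene rose when the cells differentiated. On day 3 against day 0, 8 of 8 members were higher at an adjusted p under 0.05 in edgeR's quasi-likelihood test, where 18.1% of all tested genes were called higher. Their median log2 fold change was 5.77, and that of all tested genes -0.01. On day 5 against day 0, 8 of 8 were again higher, where 23.2% of all tested genes were, with a median log2 fold change of 6.61. The troponin genes together took 0.0367% of all counts in WT at day 0 (exact 95% interval 0.0353 to 0.0382%), 0.852% at day 3 and 0.817% at day 5. In Per1KO they took 0.00928%, 0.395% and 0.785%, and in Per2KO 0.00523%, 0.360% and 0.618%. These intervals, and all others below, are exact at 95% and cover counting error only.

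Among the troponin T genes, which tie the complex to tropomyosin, cardiac Tnnt2 was expressed in every library. It stood at 124, 2072 and 1769 CPM in WT on days 0, 3 and 5, at 50.3, 932 and 1837 CPM in Per1KO, and at 28.8, 900 and 1459 CPM in Per2KO. The day 0 libraries lay far below all later ones, and at day 0 WT was the highest. Its log2 fold change was 4.38 ± 0.36 (SE) on day 3 (adjusted p = 0.00017, edgeR) and 4.92 ± 0.37 on day 5 against day 0. Fast Tnnt3 stood at 44.6, 1185 and 1589 CPM in WT, at 5.69, 584 and 1210 CPM in Per1KO, and at 2.65, 545 and 949 CPM in Per2KO. Its day 0 levels were spread more widely over the populations than those of Tnnt2. It rose by a log2 fold change of 6.17 ± 0.71 on day 3 and 6.99 ± 0.74 on day 5. Slow Tnnt1 stood at 20.4, 397 and 578 CPM in WT, at 11.2, 203 and 549 CPM in Per1KO, and at 6.17, 192 and 413 CPM in Per2KO. In each population it was higher on day 5 than on day 3, and its log2 fold changes from day 0 were 4.47 ± 0.26 and 5.51 ± 0.28.

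Among the troponin I genes, the inhibitory subunit, slow Tnni1 and fast Tnni2 followed similar courses and cardiac Tnni3 was near the lower limit at day 0. Tnni1 stood at 59.6, 1749 and 1772 CPM in WT, at 5.71, 634 and 1363 CPM in Per1KO, and at 2.34, 528 and 1031 CPM in Per2KO. Tnni2 stood at 50.2, 1091 and 1067 CPM in WT, at 6.64, 371 and 867 CPM in Per1KO, and at 4.28, 326 and 676 CPM in Per2KO. Both were highest in WT on each day, and neither differed between WT days 3 and 5 beyond counting error. Their log2 fold changes on day 3 were 6.23 ± 0.79 for Tnni1 and 5.37 ± 0.58 for Tnni2. Tnni3 had 5, 26 and 14 counts in WT, or 0.705, 4.74 and 3.07 CPM. It stood at 0.526, 3.78 and 16.1 CPM in Per1KO and at 0.393, 3.49 and 13.2 CPM in Per2KO. It was the one member whose knockout libraries on day 5 lay above WT after lying below it, within counting error, on days 0 and 3. It rose by a log2 fold change of 3.07 ± 0.55 on day 3 (adjusted p = 0.0047, edgeR) and 4.58 ± 0.54 on day 5, the smallest rises among the 8.

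Among the troponin C genes, which bind calcium, the slow and cardiac form Tnnc1 had the highest level per length of all members in each library of days 3 and 5. In CPM it stood at 51.0, 2451 and 2221 CPM in WT, at 6.62, 1161 and 2220 CPM in Per1KO, and at 3.77, 1047 and 1718 CPM in Per2KO. WT and Per1KO reached the same level on day 5, a ratio of 1.00 with an interval of 0.979 to 1.02. Its log2 fold changes were 6.86 ± 0.74 on day 3 and 7.49 ± 0.77 on day 5. Fast Tnnc2 had 1, 64 and 44 counts in WT, 5, 1464 and 2749 in Per1KO, and 5, 1454 and 2240 in Per2KO. That corresponds to 0.141, 11.7 and 9.66 CPM, to 0.101, 30.3 and 65.9 CPM, and to 0.0983, 30.0 and 54.5 CPM. On days 3 and 5 it lay lower in WT than in either knockout, the reverse of the order for most members. Its fitted log2 fold change of 8.21 ± 0.43 on day 3 was the largest, and rests on 1 to 5 counts at day 0. In WT the rise was 82.7-fold with an interval of 14.3 to 3316, and in Per1KO 299-fold with an interval of 128 to 922.

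**Figure D1:**
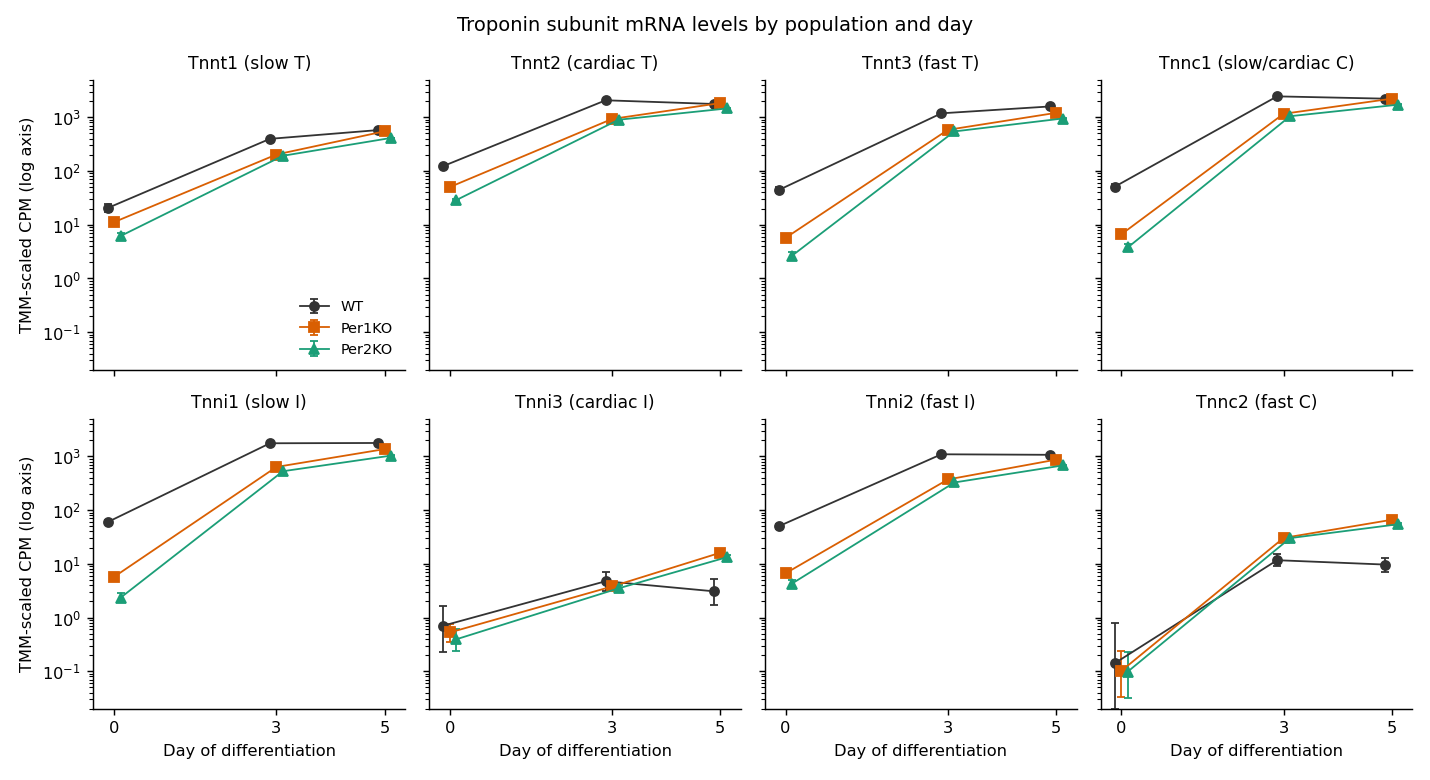
CPM of the 8 troponin genes (log axis, scaled by TMM factors) against the day of differentiation, 1 panel per gene and 1 line per population. Points are single libraries and bars are exact 95% counting intervals, cut at the lower edge of the axis for Tnnc2 in WT at day 0. In 6 panels the knockouts start well below WT at day 0 and come near it by day 5, and in the panel of Tnnc2 the knockouts lie above WT on days 3 and 5.

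Between day 3 and day 5 8 of 8 members rose in each knockout and 3 of 8 in WT. The direct test of this difference, given below, called 0 of 8. In Per1KO and in Per2KO 8 of 8 members were higher on day 5, with intervals of the ratio above 1 for all 8. Such intervals cover counting error between 2 single libraries, and no share of all genes stands beside these counts. In WT 3 of 8 were higher and 5 lower on day 5, and only Tnnt1 and Tnnt3 had intervals above 1 (1.46-fold, 1.38 to 1.54, and 1.34-fold, 1.30 to 1.39). Tnnt2 and Tnnc1 had intervals below 1 in WT. Over the 3 populations 0 of 8 members were called in edgeR, where 1.79% of all tested genes were. An unadjusted p under 0.05 was reached by 3 members (Tnnt1, Tnnc2 and Tnni3) and by 1975 of the 13324 tested genes. DESeq2 called 1, Tnnt1, where it called 5.61% of all genes. Without the WT libraries 8 of 8 were called higher, with log2 fold changes from 0.82 to 2.0, where 10.5% of all genes tested without WT were called either way. The difference between the knockouts' change and that of WT from day 3 to day 5, a comparison added after seeing the data, was positive for 8 of 8 members, with a median of 1.03 on the log2 scale. It was called for 0 of 8, and for 0.0% of all tested genes, with 7 members and 2933 genes in all at an unadjusted p under 0.05. With every library thinned to the depth of the shallowest, 3 of 8 were called (Tnni2, Tnni3 and Tnnc1), where 2.42% of all genes were.

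The knockouts lay below WT for most members, and the gap was widest before differentiation. At day 0 8 of 8 members were lower in each knockout than in WT, and 6 of 8 had intervals of the ratio below 1. The exceptions were Tnni3 and Tnnc2, with at most 26 counts in a library. The share of all genes with such intervals is not given here, so these counts are not read as particular to troponin. The median log2 difference from WT was -2.10 for Per1KO and -2.82 for Per2KO at day 0, -1.05 and -1.16 at day 3, and -0.04 and -0.43 at day 5. At day 0 Tnni1 was 10.4-fold higher in WT than in Per1KO (8.96 to 12.2) and 25.5-fold higher than in Per2KO (20.8 to 31.5). Tnnt3 was 7.83-fold (6.65 to 9.23) and 16.8-fold higher (13.7 to 20.7) in WT. Slow Tnnt1 showed a smaller gap at day 0, 1.83-fold (1.51 to 2.20) and 3.31-fold (2.70 to 4.05), and so did Tnnt2, 2.46-fold (2.27 to 2.66) and 4.29-fold (3.95 to 4.67). On day 5 the knockout and WT levels of Tnnt1 differed by 1.05-fold (1.01 to 1.10) in Per1KO and 1.40-fold (1.34 to 1.46) in Per2KO.

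**Figure D2:**
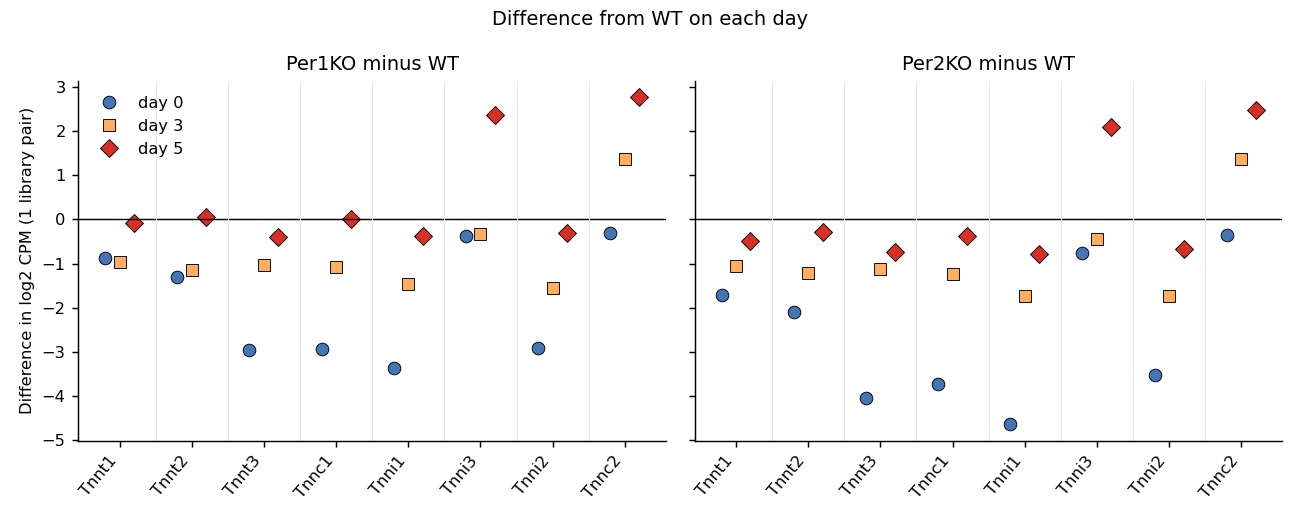
Difference in log2 CPM between each knockout and WT on the same day for the 8 troponin genes (left panel Per1KO, right panel Per2KO). Each symbol is 1 pair of libraries, and the horizontal line is no difference. For Tnni1 the difference from WT moves from -3.37 at day 0 to -0.38 at day 5 in Per1KO and from -4.64 to -0.78 in Per2KO, while Tnnc2 moves up to 2.76 and 2.49.

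Averaged over the days, 5 of 8 members differed between Per2KO and WT in edgeR, where 19.9% of all tested genes did. Slow Tnni1 (log2 fold change -2.43 ± 0.69, adjusted p = 0.046), fast Tnni2 (-2.05 ± 0.52, adjusted p = 0.030), cardiac Tnnt2 (-1.22 ± 0.32, adjusted p = 0.034) and slow Tnnt1 (-1.07 ± 0.23, adjusted p = 0.017) were lower, where 10.6% of all tested genes were. Fast Tnnc2 was higher (1.85 ± 0.32, adjusted p = 0.0066), where 9.31% were. Tnnt3 (-1.97, adjusted p = 0.060) and Tnnc1 (-1.86, adjusted p = 0.074) missed the threshold, and Tnni3 stood at 0.49 (adjusted p = 0.57). The 4 lower members thus held slow, fast and cardiac forms. Without day 3 Tnnc2 was the one member called, without day 5 the calls of Tnnc2 and Tnni1 were lost, and without day 0 those of Tnnt1 and Tnnt2. Of all tested genes, 6.22% were called without day 3, 5.82% without day 5 and 23.0% without day 0. The threshold was also missed by Tnni1 and Tnni2 with thinned libraries, and by those and Tnnt2 with no filter on low counts or with only the 6 libraries of WT and Per2KO.

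In Per1KO against WT 1 of 8 members was called, where 19.3% of all tested genes were. This was Tnnc2, higher by a log2 fold change of 2.0 ± 0.32 (adjusted p = 0.0049, edgeR), where 9.26% of all tested genes were called higher and 10.1% lower. The call was lost without day 5 (1.29, adjusted p = 0.10). The other members stood between -1.93 (Tnni1, adjusted p = 0.085) and 0.74 (Tnni3, adjusted p = 0.39), and 6 of 8 were negative. DESeq2's Wald test called 5 of 8: Tnnt1, Tnnt2, Tnni1 and Tnni2 lower and Tnnc2 higher. It called 25.5% of all tested genes.

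Per1KO and Per2KO were not told apart. All 8 members were higher in Per1KO on each of the 3 days, with fitted log2 differences from 0.15 for Tnnc2 to 0.50 for Tnni1. None of 8 passed in edgeR or DESeq2, 0 had an unadjusted p under 0.05, and edgeR called 0.0% of all tested genes, with 88 at an unadjusted p under 0.05. Both knockouts were compared with the same WT libraries, so their differences from WT are not independent of each other.

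The rise from day 0 was steeper in the knockouts than in WT for 4 members, which include slow and fast forms. The difference in the log2 response, taken as the mean of days 3 and 5 minus day 0 in the knockouts less that in WT, was positive for 8 of 8 members and called higher for 4 of 8, where 3.5% of all tested genes were called higher and 4.95% either way. These were slow Tnni1 (2.86 ± 0.49, adjusted p = 0.026, edgeR), fast Tnnt3 (2.65 ± 0.37, adjusted p = 0.014), slow and cardiac Tnnc1 (2.64 ± 0.42, adjusted p = 0.021) and fast Tnni2 (2.12 ± 0.45, adjusted p = 0.046). For cardiac Tnnt2 the difference was 1.01 ± 0.44 (adjusted p = 0.22) and for slow Tnnt1 0.63 ± 0.39 (adjusted p = 0.37). For Tnni3 it was 1.5 ± 1.5, and for Tnnc2 2.45 ± 2.45, with -0.13 once libraries were thinned. Tnni2 was lost without Per2KO. Tnnt3 and Tnni1 were lost without day 5, and Tnni1 and Tnni2 with no filter on low counts. The 4 called members are those whose day 0 levels were 7.56-fold or more apart between WT and Per1KO.

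The balance between the forms of a subunit was read from the difference in their log2 CPM within a library, called their log2 ratio. Each log2 CPM holds a prior count of 2, scaled to library size, which moves ratios that rest on few counts. Of 12 exact two-sided permutation tests of these ratios, with labels permuted within days or populations, 7 reached the smallest p that the 27 arrangements allow, 0.037. Adjusted over the 12 by Benjamini-Hochberg that p was 0.063, so 0 of 12 passed 0.05, and the ratios are given as values.

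Within troponin T the fast form took a larger part on days 3 and 5 than at day 0 in each population. The log2 ratio of Tnnt3 to Tnnt1 was 1.12, 1.58 and 1.46 in WT on days 0, 3 and 5, -0.97, 1.53 and 1.14 in Per1KO, and -1.2, 1.5 and 1.2 in Per2KO. The knockouts thus held more Tnnt1 than Tnnt3 counts at day 0 and the reverse on days 3 and 5, and WT held more Tnnt3 on each day. Days 3 and 5 exceeded day 0 by 1.75 on average, in 6 of 6 pairs of libraries, and without WT by 2.43. The knockouts differed from WT by -0.85 (0 of 6 pairs higher), and by -0.18 without day 0. The ratio of Tnnt3 to Tnnt2 was -1.47, -0.81 and -0.15 in WT, -3.13, -0.67 and -0.60 in Per1KO, and -3.41, -0.72 and -0.62 in Per2KO. It was 2.07 higher on the later days than at day 0, in 6 of 6 pairs. The knockouts differed from WT by -0.72 in this ratio, and by -0.17 without day 0. The ratio of Tnnt2 to Tnnt1 varied less, from 1.61 to 2.59, with a day difference of -0.32 (exact p = 0.33).

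Within troponin I the fast form took a smaller part on days 3 and 5 than at day 0. The log2 ratio of Tnni2 to Tnni1 was -0.25, -0.68 and -0.73 in WT, 0.22, -0.77 and -0.65 in Per1KO, and 0.86, -0.69 and -0.61 in Per2KO. The 6 later libraries lay close together, and the 3 day 0 libraries lay above them and apart. The mean difference between days 3 and 5 and day 0 was -0.97, lower in 6 of 6 pairs. The knockouts lay 0.28 above WT, and 0.024 above it without day 0. The direction over days is thus opposite to that of Tnnt3 to Tnnt1. The ratio of cardiac Tnni3 to Tnni1 was -6.29, -8.51 and -9.14 in WT, -3.30, -7.37 and -6.40 in Per1KO, and -2.40, -7.21 and -6.28 in Per2KO. It lay 2.49 higher in the knockouts, in 6 of 6 pairs, and the later days differed from day 0 by -3.49. At day 0 it rests on 5, 26 and 20 Tnni3 counts in WT, Per1KO and Per2KO.

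Within troponin C the ratio of Tnnc2 to Tnnc1 lay higher in both knockouts than in WT on days 3 and 5. Its value was also higher at day 0, where counting error covers the gap. There Tnnc2 took 0.275% (0.00697 to 1.53%) of troponin C counts in WT, 1.51% (0.491 to 3.48%) in Per1KO and 2.54% (0.829 to 5.82%) in Per2KO. The change of the ratio with the day cannot be read, since Tnnc2 had 1, 5 and 5 counts at day 0 in WT, Per1KO and Per2KO. With so few counts the prior count of 2 sets much of the day 0 value. The ratio was -7.99, -7.71 and -7.84 in WT, -5.37, -5.26 and -5.07 in Per1KO, and -4.59, -5.12 and -4.98 in Per2KO. The knockouts lay 2.78 above WT, in 6 of 6 pairs, with the pairs of day 0 included. With that prior count the mean difference between days 3 and 5 and day 0 was -0.01 (exact permutation p = 1.0).

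**Figure D3:**
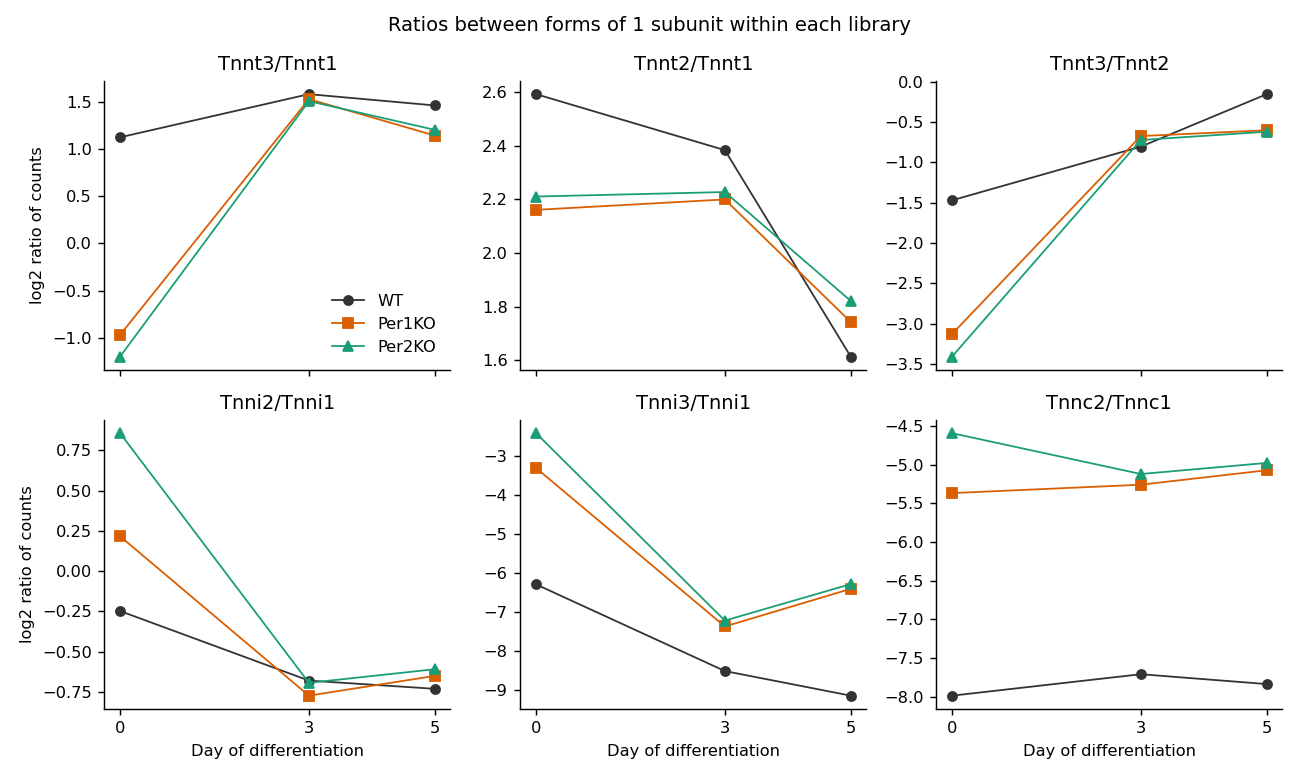
The log2 ratio between 2 forms of 1 subunit within each library, against the day of differentiation, with 1 line per population and a separate vertical scale for each panel. The ratio is the difference in log2 CPM with a prior count of 2. The ratio of Tnnt3 to Tnnt1 is -0.97 and -1.2 in the knockouts at day 0 and 1.12 in WT, and the ratio of Tnnc2 to Tnnc1 averages -7.84 in WT and -5.06 in the knockouts.

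Which form leads a subunit depends on the transcript length used to scale the counts. Per kilobase of the longest annotated transcript, the median share of troponin T over the 6 libraries of days 3 and 5 was 52.6% for Tnnt3, 26.7% for Tnnt2 and 20.2% for Tnnt1. Per kilobase of the median coding transcript, Tnnt2 led with 49.0% over Tnnt3 with 33.7%. The longest annotated Tnnt2 transcript has 3330 bases and the median coding one 1095.5. The median shares of troponin I were 59.6% for Tnni2, 39.9% for Tnni1 and 0.603% for Tnni3 on the first scale, and 40.9%, 58.8% and 0.479% on the second. Tnnc1 took 97.3% and Tnnc2 2.74% of troponin C on either scale. At day 0 the per-kilobase share of Tnnt3 (longest transcript) was 42.3% in WT, 17.0% in Per1KO and 14.5% in Per2KO, and it was 51.2 to 57.8% in the later libraries. The Tnni3 share at day 0 was 0.914% in WT, 5.42% in Per1KO and 6.84% in Per2KO, from 5, 26 and 20 counts. Of the troponin I counts, these are 0.638% (0.207 to 1.48%), 4.09% (2.69 to 5.93%) and 5.6% (3.46 to 8.52%).

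**Figure D4:**
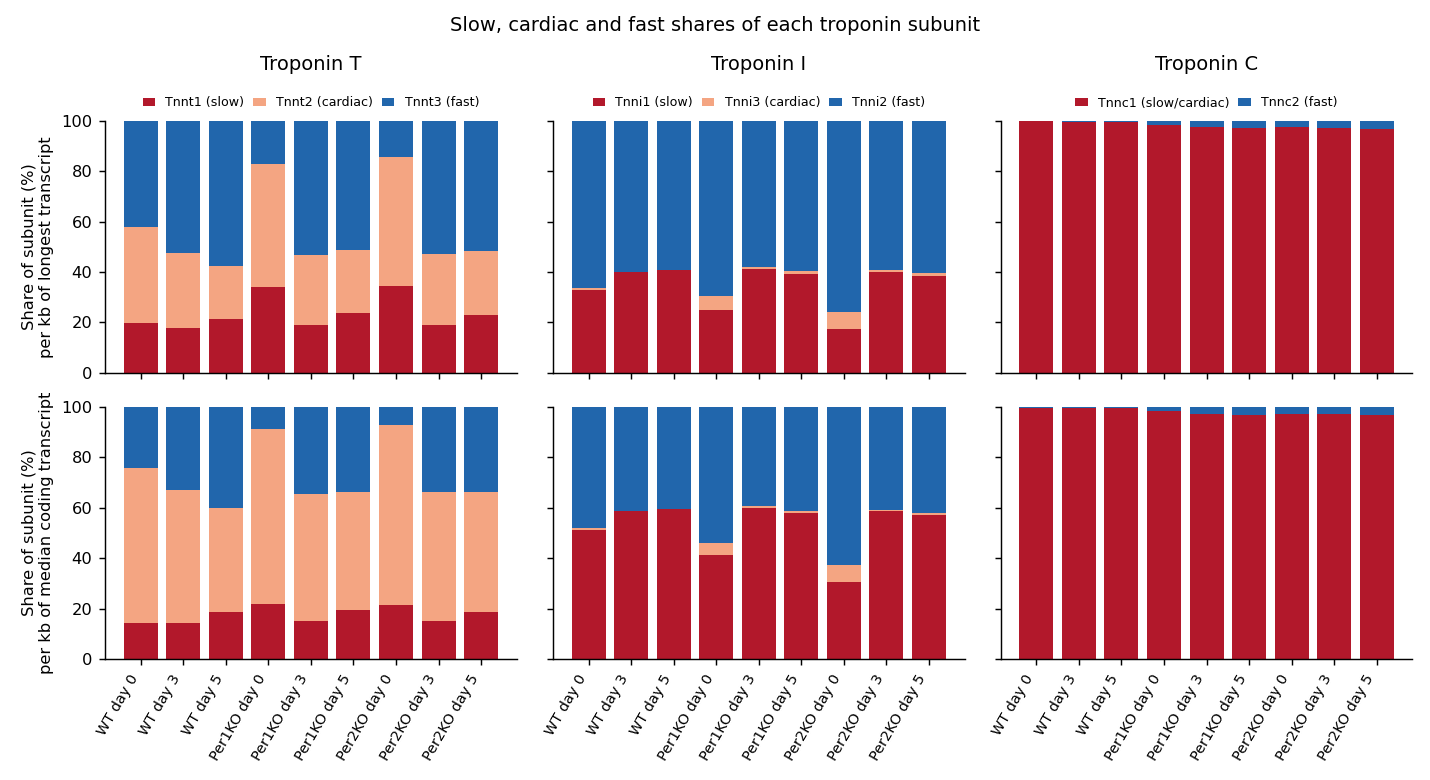
Share of each form in its subunit (%, bars sum to 100) in the 9 libraries, from counts per kilobase of the longest transcript (top row) or of the median coding transcript (bottom row). The Tnnt3 share is smaller in the knockouts at day 0 (17.0% and 14.5% in the top row) than in the other libraries, and the leading form of troponin T and I on days 3 and 5 differs between the rows.

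In TPM (counts per length of the longest transcript, scaled to an equal total in each library), the order on day 5 was led by Tnnc1, with a median of 7721 over the 3 populations and a range of 6227 to 7822. Tnnt3 followed with 2848 (2299 to 3692), Tnni2 with 2462 (1973 to 2987), Tnni1 with 1608 (1252 to 2062), Tnnt2 with 1332 (1145 to 1401) and Tnnt1 with 1317 (1019 to 1368). Tnnc1 lay apart from the next gene, while the ranges of each later pair of neighbours down to Tnnt1 overlapped. Tnnc2 with 203 (34.6 to 239) and Tnni3 with 37.9 (8.45 to 44.8) lay below them, and their ranges overlapped. These ranges run over populations, and within each day 5 library the order was nearly the same. Tnnt3 lay above Tnni2, Tnni2 above Tnni1, and Tnnc2 above Tnni3 in each. Only Tnnt2 and Tnnt1 changed places, with Tnnt1 higher in WT and Tnnt2 higher in both knockouts. At day 0 Tnnt2 had the highest median TPM, 41.4 (24.1 to 107), and the ranges of all 6 abundant members overlapped. With the median coding transcript Tnnc1 still led on day 5, at a median TPM of 4580, followed by Tnni1 with 2807 and Tnnt2 with 2401.

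The Tnnc2 values carry a limit of the annotation. Of the 800 exon bases of Tnnc2, 74.0% lie under an exon of Ube2c on the other strand, and 67.6% of its 31-base words also occur in Ube2c, a ubiquitin-conjugating enzyme of dividing cells. How reads in those bases were assigned, and whether strand was used, is not given in the sources used here, so the level of Tnnc2 beside Tnnc1 and its difference from WT are uncertain. Ube2c moved the opposite way with differentiation, by log2 fold changes of -1.66 on day 3 and -3.04 on day 5. It stood at 102, 35.5 and 10.1 CPM in WT, 174, 50.1 and 19.8 CPM in Per1KO, and 155, 49.4 and 22.4 CPM in Per2KO, and was higher in each knockout than in WT (0.71 in both, adjusted p = 0.013, edgeR). Protein-coding genes were split, after seeing the data, by the share of their exon bases that lies under exons of the other strand. Only genes sharing up to 10% of exon bases on their own strand were included. Of 72 tested genes with 50% or more, 15.3% were called higher in Per1KO than in WT, and of 7805 with none, 5.16%. In Per2KO the shares were 16.7% and 5.19%. Median log2 fold changes were 0.20 and -0.06 in Per1KO, and 0.14 and -0.06 in Per2KO. The other members shared 0.0% of their exon bases with the other strand, and Tnni3 shared 4.17% with Dnaaf3 on its own strand.

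**Figure D5:**
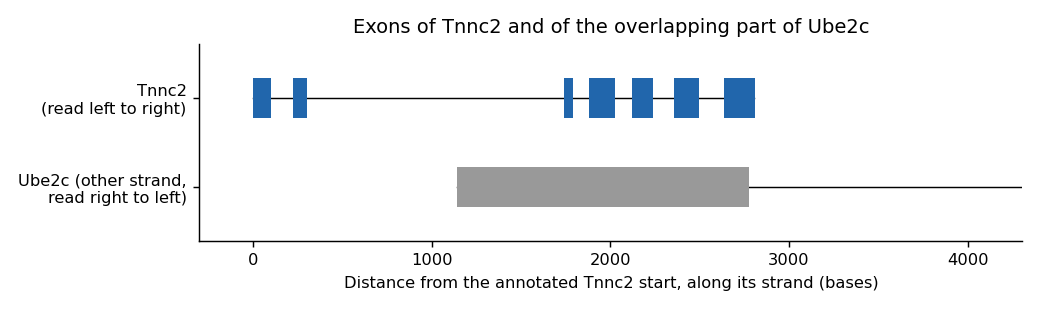
Exons of Tnnc2 (blue) and of the part of Ube2c that faces it (grey), drawn by distance in bases from the annotated Tnnc2 start. The last exon of Ube2c runs from 1145 to 2777 bases and covers 4 exons of Tnnc2 whole and most of its last one, while the first 2 lie outside it.

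Neighbours of the paired genes did not all move with them. Syt8, 1411 bases before Tnni2 on the same strand, rose from at most 2 counts per library at day 0, by log2 fold changes of 4.71 on day 3 and 5.18 on day 5. It was lower in Per1KO (-2.79) and Per2KO (-2.96) than in WT. Lsp1, between Tnni2 and Tnnt3, rose by 0.83 on day 3 (adjusted p = 0.041, edgeR) and stood at 0.63 on day 5 (adjusted p = 0.085). Lad1, between Tnni1 and Tnnt2, had at most 8 counts in a library and was not tested. Pkp1, downstream of Tnnt2 on the other strand, was lower in both knockouts (-1.63 and -1.5) and did not pass on day 3 (0.25) or day 5 (-0.37). Prr33, a non-coding gene that overlaps Tnnt3 outside its exons, rose by 1.38 on day 3 and was lower in both knockouts (-1.30 and -1.58).

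Other genes of the sarcomere were counted from lists chosen with earlier results of these data known. Of 12 partners of troponin on the thin filament, 11 were tested and 10 were higher on day 3 than at day 0 (18.1% of all tested genes were), with a median log2 fold change of 4.92 (all genes -0.01). Acta1, the skeletal actin, rose most, by 7.28 ± 1.17, and Tpm3, a slow tropomyosin, stood at -0.46 (adjusted p = 0.061, edgeR). In Per1KO 4 of 11 were lower than in WT and in Per2KO 8 of 11, where 10.1% and 10.6% of all tested genes were, with medians of -1.44 and -1.71. Cardiac actin Actc1 had the largest fall in both, by -3.33 ± 0.95 and -3.61 ± 0.97. Its response to differentiation was steeper in the knockouts, by 4.10 ± 0.44, as was that of Acta1, by 4.10 ± 0.55, and 5 of 11 partners were called higher in that comparison, where 3.5% of all tested genes were.

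Of 12 fast-fibre genes 11 were tested, and 10 rose on day 3 (18.1% of all tested genes did), with a median of 6.83. The fast myosin Myh2 rose most (8.04 ± 0.65). In Per1KO 2 of 11 were lower than in WT and in Per2KO 4 of 11, against 10.1% and 10.6% of all tested genes, led by Atp2a1, the fast calcium pump, at -1.70 ± 0.49 and -2.0 ± 0.50. Of 10 slow-fibre genes 9 were tested, and 8 rose on day 3 (18.1% of all), with a median of 7.09. In each knockout 4 of 9 were lower than in WT and 1 was higher. Of all tested genes 10.1% were lower and 9.26% higher in Per1KO, and 10.6% and 9.31% in Per2KO. Csrp3, a Z-disc protein, had the largest fall (-2.88 ± 0.20 and -3.24 ± 0.20). The higher gene was Myl2, the slow and cardiac regulatory light chain, at 3.43 ± 0.22 and 3.06 ± 0.22. Myl2 had 0 counts in all 3 libraries of day 0 and stood at 2.73 and 19.1 CPM in WT on days 3 and 5, against 23.1 and 239 CPM in Per1KO and 20.9 and 159 CPM in Per2KO. Lists of fast and slow genes thus both held lower members, and neither was tested against the other.

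Of 9 cardiac and embryonic sarcomere genes 6 were tested, and 5 rose on day 3 (18.1% of all), led by embryonic myosin Myh3 (8.18 ± 1.52). In Per1KO 2 of 6 were lower than in WT, Actc1 and Myh6, and in Per2KO 3 of 6, against 10.1% and 10.6% of all tested genes. Of 15 regulators of fibre type 12 were tested. Of these, 4 were higher on day 3, where 18.1% of all tested genes were, and 1 was lower. Of all tested genes 35.0% were called either way on day 3. The higher regulators were led by the transcription factor Mef2c (3.24 ± 0.15), and the lower one was Vgll2, a cofactor of TEAD factors, at -0.48 ± 0.15. Vgll2 was lower in Per1KO (-1.32 ± 0.16) and in Per2KO (-1.30 ± 0.16), and Mef2c and Tead4 were lower in Per2KO (-0.69 and -0.92). That is 1 of 12 lower in Per1KO and 3 of 12 in Per2KO, against 10.1% and 10.6% of all tested genes. In the response to differentiation, Tead1 (0.94) and Srf (0.85) were higher in the knockouts and Nfatc1 was lower (-1.02). That is 2 of 12 higher and 1 lower, where 3.5% of all tested genes were called higher and 4.95% either way.

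The genes most like each member in log2 CPM over the 9 libraries were ranked by Pearson's r. These correlations share the libraries and the rise with differentiation, and are given as a description. The nearest gene was Myl1 for Tnnt1 (r = 0.997), Itgb1bp2 for Tnnt2 (0.999), Srl for Tnnt3 (0.999), Mymk for Tnni1 (0.999), Trim72 for Tnni2 (0.999) and Srl for Tnnc1 (0.999). Mymk is the fusion protein myomaker. The nearest genes to Tnni3 and Tnnc2 were Dcun1d2 (0.990) and Best1 (0.997). Among the members themselves, Tnni1 and Tnni2 were most alike (0.999), and Tnni1 and Tnni3 least (0.879).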

How the data were processed

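RNA was measured in 9 C2C12 libraries by sequencing of poly(A) RNA with single reads, per the labels' protocols. The submitters' processing notes name CASAVA 1.8, HISAT2 2.1.0 and the mm10 build. The counting program, annotation and use of strand are not given in the sources used here. The authors deposited whole-number read counts per Ensembl gene, which were used as deposited. All 9 value columns matched sample titles.

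Counts were scaled with TMM factors and tested with edgeR 4.0.16 (quasi-likelihood, robust), with genotype and day as additive terms and 4 residual degrees of freedom, or with an interaction of knockout and differentiation (3). Benjamini-Hochberg adjustment ran over 13324 genes, and genes were called at an adjusted p under 0.05. The script was tested on simulated counts. Alternatives were DESeq2 1.42.0, its size factors, no filter, thinned libraries, fewer libraries, and other prior counts and lengths. Pair intervals are exact. Positions, lengths and overlaps came from GENCODE (GRCm38), and 47224 of 47729 identifiers matched a gene there. Promoter windows came from RefSeq (GRCm38.p6).

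The members, gene lists and tests were chosen with earlier results of these data known. The genes named are the members, Per1 and Per2, the members' neighbours, from each list those with the largest rise and fall, and the nearest genes by correlation. Further list genes were picked once their values had been looked at: Tpm3, Acta1 in the response, Myh6, Mef2c, Tead4, Tead1, Srf and Nfatc1.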

Additional observations from a re-analysis of the deposited data

Results flagged for a closer look

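The response to differentiation differed between the knockouts and WT for 4 troponin genes in a test of the difference itself, the interaction term in edgeR. The values are log2 differences, positive where the rise was steeper in the knockouts. Tnni1 had 2.86 (adjusted p = 0.026), Tnnt3 2.65 (adjusted p = 0.014), Tnnc1 2.64 (adjusted p = 0.021) and Tnni2 2.12 (adjusted p = 0.046). Each of the 4 stood lower in both knockouts than in WT at day 0, by log2 differences from -2.91 to -4.64, and by -0.00 to -0.78 on day 5. Depth differs between the same libraries as genotype, so depth and genotype cannot be told apart.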

How the results depend on the processing

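Each population and day has 1 library, so leaving out a population or a day removes 3 libraries. The labels give no replicate numbers, and day or population was already a term of each fit. Percentages in this paragraph are shares of all tested genes called either way in the same setting. Members called on day 3 against day 0 numbered 5 to 8 when a population was left out. The count was 5 without Per1KO (8.37%), where Tnnt3, Tnni1 and Tnni3 missed the threshold. The share was 10.6% without Per2KO and 58.0% without WT. On day 5 against day 0 it was 8 throughout (17.3 to 64.6%). For day 5 against day 3 the count was 1 with DESeq2 (5.61%), 1 with no filter (1.41%) and 1 with thinned libraries (1.53%). With a population left out it was 0 to 8. It was 8 without WT (10.5%), and the share was 0.0% without Per1KO and without Per2KO. For Per1KO against WT it was 5 with DESeq2 (25.5%) and 1 to 2 with a day left out. It was 2 without day 0 (20.4%), and without day 5 (5.29%) the call was Tnni2 and not Tnnc2. Without day 3 the share was 6.85%. For Per2KO against WT it was 2 with no filter (10.9%), 3 with thinned libraries (15.9%) and 2 with the 6 libraries compared (9.43%). With a day left out it was 1 to 4. It was 1 without day 3 (6.22%) and 3 without day 5 (5.82%), and without day 0 the share was 23.0%. For the response to differentiation it was 2 with no filter (3.44%) and 2 to 5 with a population or day left out. It was 2 without day 5 (14.6%) and 5 without day 3 (3.76%). The share was 3.1% without Per1KO and 1.84% without Per2KO. For the change from day 3 to day 5 it was 3 with thinned libraries (2.42%). The cause of these shifts was not tested.

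The direction turned in a few cases. With a day left out, Tnni3 against WT ran from -0.34 (without day 5) to 1.67 (without day 3) in Per1KO and from -0.57 to 1.36 in Per2KO. The response of Tnnc2 was -0.13 with thinned libraries. The day difference of the Tnnc2 to Tnnc1 ratio was 0.42 with a prior count of 0.5 and -0.13 to 0.21 with a population or day left out. With a day or population left out, the knockout difference of Tnnt3 to Tnnt1 ran from -1.25 to -0.18 and that of Tnnc2 to Tnnc1 from 2.61 to 2.95. The Tnnt3 share of troponin T was 33.7% with the median coding length and 33.6% with no length correction, and the Tnni2 share of troponin I 40.9% and 38.2%. In all, 134 of the values that answer a comparison stayed on their side under their alternatives, 19 moved and 3 reversed. Of the values of single genes, 379 stayed, 26 lost their call, 24 gained one and 3 reversed. With 5 to 26 counts in WT, Tnni3 is limited by depth, as is Tnnc2 at day 0.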
